A study of Mus musculus with 16 samples.

Results

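The E proteins, the Id proteins and 3 further inhibitors of MyoD can affect how much of that myogenic factor acts on DNA. Their messages were followed here in C2C12 cells with and without the miR-206 family. Myod1, the gene of MyoD itself, had at most 3 fragments in any library in growth medium. The set was taken by name from the deposited table and holds 10 of its 35275 genes. Tcf3, Tcf4 and Tcf12 encode the E proteins, Id1, Id2, Id3 and Id4 the Id proteins, and Twist1, Snai2 and Msc the other inhibitors. In this table Tcf3 and Tcf4 are the E protein genes, not the Wnt effectors that are sometimes called by the same short names. Of the 10 genes, 7 passed a filter of a mean of 0.5 FPKM over all libraries (fragments per kilobase of transcript, relative to library size, so that genes can be compared per length). Id4, Twist1 and Msc did not, and are given by their fragments.

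C2C12 cells are mouse myoblasts, a long-established line whose cells stop dividing and fuse to myotubes once serum is reduced. Poly(A) RNA of 16 libraries was sequenced from 4 lines, namely 2 control populations of wild-type genotype and 2 clones carrying a triple knockout (tKO) of the genes for miR-206 and for both copies of miR-1a (miR-1a-1, miR-1a-2). The cells of every group are described as PAX7 negative. Each line was taken in growth medium with fetal bovine serum (GM) and after 3 days in differentiation medium with horse serum (DM3), in 2 cultures, which gives 4 groups of 4 libraries. Each tKO line is a single clone, so a difference between the genotypes rests on 2 clones against 2 populations. Nothing in the labels says how the cultures of a line were kept apart, so the p-values measure the spread between these samples, part of which may be technical.

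Myogenic factors such as MyoD bind DNA as heterodimers with an E protein, at E-boxes (CANNTG). Id proteins have the helix-loop-helix part but lack the basic region that touches DNA. They pair with E proteins and hold them in complexes that do not bind DNA, which keeps myoblasts from differentiating. Id genes are induced by serum and by BMP signalling through Smad proteins. Twist1 and Msc, also called MyoR, are themselves helix-loop-helix proteins that compete for E proteins, and Snai2 is a zinc finger repressor that can occupy E-boxes. Id1, Id2, Id3 and Msc have been reported to fall when miR-206 is added to C2C12 cells, which raises the question of what happens to them when the family is removed.

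A microRNA of this family recognises messages through its seed, bases 2 to 8, shown here in capitals because it is the sequence the knockout removes from the cell. The mature sequence is from RefSeq (GRCm38.p6) and lies at chr1:20679055-20679076 on the plus strand.
mmu-miR-206-3p: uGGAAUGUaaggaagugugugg
The message carries the reverse complement of the seed, ACATTCC. In the longest annotated 3′ UTR of each member (GENCODE M21), none of the 10 had the 8-base site ACATTCCA, and 2 had a 7-base site. Snai2 had ACATTCC 725 bases after its stop codon at chr16:14709020-14709026, on the plus strand. Id4 had CATTCCA 153 bases after its stop codon at chr13:48263086-48263092, also on the plus strand. Both are shown with 11 bases on each side and the match in capitals.
Snai2 site: acaaacttcaaACATTCCtggtgcgtgtc
Id4 site: tctcgtcttgtCATTCCAagagagagaga
Tcf4 had 2 matches to 6 bases of the seed and Tcf12 had 1. Id1, Id2, Id3, Tcf3, Twist1 and Msc had none. Over 20983 genes with an annotated 3′ UTR, 3.81% held the 8-base site, 16.95% a site of 7 or 8 bases and 29.6% a match of at least 6 bases. The members' UTRs ran from 536 bases in Id3 to 6007 in Tcf4, against a median of 962 over all genes, and a match describes the letters only.

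Id2 and Id3, whose levels are followed most closely below, differ in the letters around their start sites. RefSeq promoters (GRCm38.p6), which run from 250 bases before the start to 50 after it, were at hand for Id2, Id3, Id4, Tcf3, Tcf12 and Twist1. The window of Id2, at chr12:25096043-25096342 on the minus strand, held 1 E-box, CAGCTG, in capitals. The window of Id3, at chr4:136143572-136143871 on the plus strand, held none.
Id2 promoter: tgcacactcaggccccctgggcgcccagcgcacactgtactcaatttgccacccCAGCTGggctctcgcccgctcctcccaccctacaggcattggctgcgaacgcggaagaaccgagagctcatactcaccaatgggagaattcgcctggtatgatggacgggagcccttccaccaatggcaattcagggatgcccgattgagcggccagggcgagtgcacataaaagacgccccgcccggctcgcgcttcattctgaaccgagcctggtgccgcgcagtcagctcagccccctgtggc
Id3 promoter: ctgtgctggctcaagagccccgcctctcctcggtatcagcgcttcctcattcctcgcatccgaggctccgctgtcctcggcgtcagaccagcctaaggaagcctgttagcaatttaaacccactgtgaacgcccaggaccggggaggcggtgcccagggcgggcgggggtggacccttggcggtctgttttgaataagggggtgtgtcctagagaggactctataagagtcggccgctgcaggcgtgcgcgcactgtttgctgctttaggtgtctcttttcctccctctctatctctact
CANNTG, which reads the same on both strands in its fixed letters, was present in 72.31% of 32851 promoters of the same length. CACCTG, one form of it, was searched on both strands, was present in 20.21% of them and was absent from the windows of all 6 genes.

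The libraries held 22642563 to 56585952 fragments. A floor of 3, which is 0.0530 to 0.132 FPKM for a gene of 1 kilobase, was taken as the limit of detection, and it covers counting error only. Values are FPKM and tests are limma fits of log2(FPKM + 1) over all 11832 genes that passed the filter, with Benjamini-Hochberg adjustment over all of them. A gene was counted as changed at an adjusted p under 0.05, and every difference is one of log2(FPKM + 1), a scale on which changes of low genes come out too small. The microRNAs themselves were not analysed here, and the knockout was therefore not checked at its target. The Mir206 host transcript (ENSMUSG00000099906) is listed in the deposited values under the name mmu-mir-133b. Its fragments numbered 59 to 608 at DM3 in controls against 14 to 152 in the clones. In GM it had at most 4 in controls and 0 in the clones. Stage markers moved the same way in both genotypes. Of 12 listed myotube markers 10 were tested, and all 10 rose from GM to DM3 in control cells. Tnnc2, which was listed but not tested, was at 0 in every control DM3 library. The filter is a mean over all libraries, so a marker near 0 in GM was tested only if it was high at DM3. All 11 markers of proliferating cells were tested and fell from GM to DM3 in control cells. The same counts were found in tKO cells. None of these 21 markers differed between the genotypes in either stage. Of markers of other cells, 4 of 6 tested fibroblast genes were higher at DM3 and 1 lower in controls, and 5 of 6 were higher in tKO cells, where C2C12 cells themselves express collagens. Of 6 tested markers of reserve cells, 2 were higher and 1 lower at DM3 in controls, and in tKO cells 4 were higher and 1 lower, with Calcr at 0 in every library. None of 3 adipocyte markers changed, and Runx2, the 1 tested osteoblast marker, fell in controls (-0.32, adjusted p = 0.0311, past the threshold in 19 of 28 alternatives) and in tKO cells (-0.53, adjusted p = 0.00122). The markers of other cells that differed between the genotypes were 3, all lower in tKO cells. Among fibroblast genes Pdgfra was lower in GM (-1.27, adjusted p = 0.00477), and did not pass with line averages or without either control line, and Dcn at DM3 (-1.65, adjusted p = 0.0145, past the threshold in 21 of 28 alternatives). The calls of Dcn ended without control line 1, culture 2 or clone 1, culture 2 at DM3, without either control line or clone 1, with line averages and with a pseudocount of 0.1. Spry1, of the reserve cell list, was lower at DM3 (-1.54, adjusted p = 2.33e-07) and differed between the genotypes in its change with stage (interaction -1.21, adjusted p = 0.00343, past the threshold in 22 of 27 alternatives and not without either control line). The part of these markers in the members' levels was not tested. RNA of a whole culture was measured, so fewer cells of a type and less RNA per cell cannot be told apart.

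In control myoblasts, Tcf3 and Id3 were the members with the highest levels per length. In GM, Tcf3 stood at 68.0 ± 3.27 FPKM (SD, n = 4) and Id3 at 61.8 ± 6.99, with overlapping ranges. Id1 followed at 51.6 ± 6.48, with every value below every Id3 value, and Id2 at 27.0 ± 4.0. Tcf12 came next at 19.8 ± 2.16, below Id2 with overlap. Snai2 at 10.8 ± 1.26 and Tcf4 at 9.39 ± 1.34 overlapped each other. After 3 days of differentiation the order changed, with Tcf3 at 52.3 ± 4.80, Id3 at 44.1 ± 19.2 and Tcf12 at 34.7 ± 3.35 FPKM, each overlapping the next. Id1 at 15.3 ± 6.72, Snai2 at 13.1 ± 1.68 and Tcf4 at 12.1 ± 1.95 also overlapped, and Id2 was lowest at 4.76 ± 3.10, below every Tcf4 value.

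**Figure D1:**
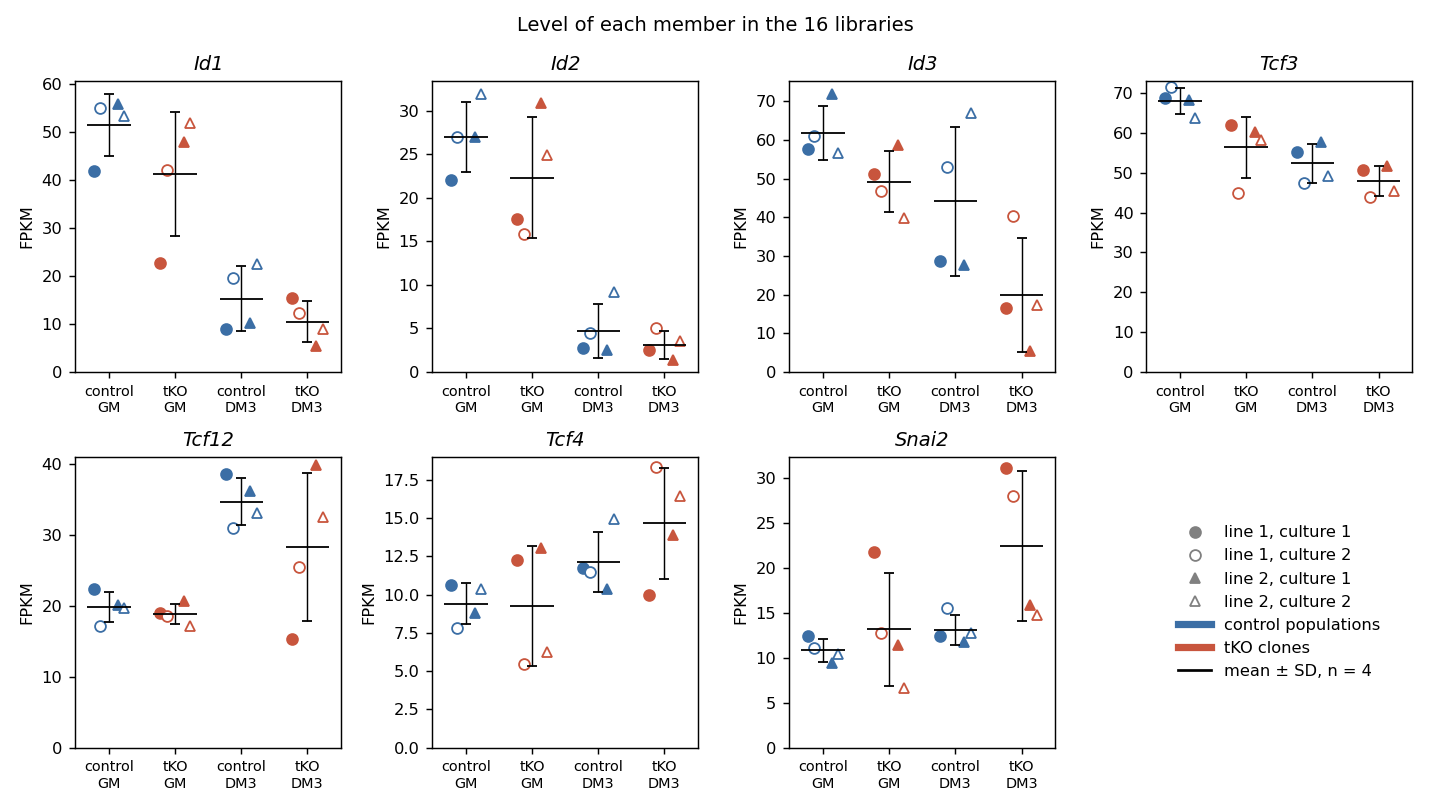
FPKM of the 7 members that passed the filter in each of the 16 libraries, by group, with line and culture shown by the marker and the bars giving mean ± SD (n = 4). Id1 and Id2 drop from GM to DM3 without overlap in either genotype, and Id3 at DM3 is split by culture number.

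Between GM and DM3, Id1 and Id2 fell most, in control cells and in tKO cells. Tcf12 rose in control cells, and its rise in tKO cells passed in only 12 of 28 alternatives. In control cells 4 of the 7 tested members changed between GM and DM3, 1 higher and 3 lower. Over all tested genes 61.5% changed in that comparison, 23.2% higher and 38.3% lower, so the members' share was near the background. In tKO cells 6 of 7 changed, 3 higher and 3 lower, where 60.9% of all genes did, 24.9% higher and 36% lower. The members' median difference was -0.38 in control cells and -0.22 in tKO cells, against -0.15 and -0.12 over all tested genes. With libraries scaled to median-of-ratios size factors, those medians over all genes moved to 0.01 and 0.01. The changed genes then split into 3611 higher and 3631 lower in control cells, in place of 2743 and 4529. In tKO cells the split was 3571 and 3587, in place of 2951 and 4257.

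Id2 (ENSMUSG00000020644, chr12:25093801-25096092, minus strand, positions here and for the genes that follow as the deposited table lists them, on mm10) changed most of all tested members. Control cells had 22.1 and 27.0 FPKM in GM for lines 1 and 2 in culture 1, and 27.0 and 31.9 in culture 2. At DM3 the same lines had 2.76 and 2.55 FPKM in culture 1 and 4.51 and 9.22 in culture 2. Every DM3 library was below every GM library, with the highest DM3 value in control line 2, culture 2. The means differed 5.67-fold (difference -2.41, SE 0.320, limma adjusted p = 8.38e-06). In tKO cells, clones 1 and 2 had 17.6 and 30.9 FPKM in GM in culture 1, and 15.9 and 24.9 in culture 2. At DM3 they had 2.48 and 1.36 FPKM in culture 1 and 5.04 and 3.52 in culture 2, again without overlap. The means differed 7.20-fold (difference -2.54, adjusted p = 4.54e-06). The fewest fragments behind any of these values were 48, in tKO DM3.

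Id1 (ENSMUSG00000042745, chr2:152736251-152737410, plus strand) fell in both genotypes too. In control GM it had 42.0 and 56.0 FPKM in culture 1 for lines 1 and 2, and 55.1 and 53.3 in culture 2. In control DM3 the values were 9.01 and 10.2 in culture 1 and 19.6 and 22.5 in culture 2. Both cultures were lower than in GM, and culture 2 was higher than culture 1 in each line. The means differed 3.37-fold (difference -1.78, SE 0.317, limma adjusted p = 0.000148). In tKO cells, clones 1 and 2 had 22.8 and 48.0 FPKM in GM in culture 1, and 42.1 and 52.0 in culture 2. At DM3 they had 15.5 and 5.41 FPKM in culture 1 and 12.3 and 8.92 in culture 2. The tKO groups did not overlap and the means differed 3.91-fold (difference -1.89, adjusted p = 8.02e-05). Non-overlap itself was common between the stages, at 64.4% of all tested genes in control cells and 49.1% in tKO cells. Id1 and Id2 fell in all 28 alternative analyses in both genotypes.

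Id3 (ENSMUSG00000007872, chr4:136143497-136145755, plus strand) fell in tKO cells, and in control cells its change did not pass the test. In control GM it had 57.7 and 71.9 FPKM in culture 1 and 61.1 and 56.6 in culture 2 for lines 1 and 2. In control DM3 it had 28.7 and 27.7 FPKM in culture 1 but 53.0 and 67.0 in culture 2. Culture 1 was thus lower at DM3 than at GM in both lines, whereas culture 2 overlapped its GM values. The control difference was -0.57 (SE 0.402, limma adjusted p = 0.228), made of -1.16 within culture 1 and 0.02 within culture 2. In tKO GM, clones 1 and 2 had 51.2 and 58.7 FPKM in culture 1 and 46.9 and 39.9 in culture 2. In tKO DM3 they had 16.6 and 5.36 FPKM in culture 1 and 40.3 and 17.2 in culture 2. The lowest value was that of clone 2, culture 1, and clone 1, culture 2 overlapped the GM range. The tKO difference was -1.54 (SE 0.402, adjusted p = 0.00337, 2.47-fold between the means), made of -2.40 within culture 1 and -0.69, with overlap, within culture 2. Without clone 2 it was -0.89 (adjusted p = 0.0889). Id3 was therefore past the threshold in 1 genotype only, but the difference between the genotypes in this change was not (genotype by stage interaction -0.97, 95% confidence interval -2.17 to 0.23, adjusted p = 0.554).

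Tcf3 (ENSMUSG00000020167, chr10:80409514-80433647, minus strand), whose products are the E2A proteins, fell modestly in control cells. In control GM it had 68.6 and 68.3 FPKM in culture 1 and 71.6 and 63.7 in culture 2. In control DM3 it had 55.1 and 57.6 FPKM in culture 1 and 47.4 and 49.2 in culture 2, with no overlap. The control difference was -0.38 (SE 0.108, limma adjusted p = 0.00660). With median-of-ratios size factors it was -0.17 (adjusted p = 0.261), without control line 1 -0.30 (adjusted p = 0.195) and without control line 2 -0.45 (adjusted p = 0.0606). In tKO cells Tcf3 had 62.0 and 60.1 FPKM in GM in culture 1 and 45.0 and 58.2 in culture 2. At DM3 it had 50.7 and 51.6 FPKM in culture 1 and 43.8 and 45.4 in culture 2. The groups overlapped through clone 1, culture 2, which was low in GM, and the difference of -0.22 did not pass (adjusted p = 0.0866). Without that GM library it was -0.32 (adjusted p = 0.0100).

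Tcf12 (ENSMUSG00000032228, chr9:71842688-72111871, minus strand), which encodes the E protein HEB, rose. In control GM it had 22.4 and 20.1 FPKM in culture 1 and 17.2 and 19.7 in culture 2. In control DM3 it had 38.6 and 36.2 FPKM in culture 1 and 31.0 and 33 in culture 2. All 4 control DM3 libraries lay above all 4 GM libraries, 1.75-fold apart in the means (difference 0.78, SE 0.198, limma adjusted p = 0.00286). Without control line 1 or line 2 the difference held its size, at 0.77 and 0.79, with adjusted p = 0.0735 and 0.0739. In tKO GM it had 19.0 and 20.6 FPKM in culture 1 and 18.5 and 17.2 in culture 2. In tKO DM3, clones 1 and 2 had 15.3 and 39.8 FPKM in culture 1 and 25.5 and 32.5 in culture 2. Clone 1, culture 1 thus lay below its own GM level while the other 3 libraries lay above every GM value. The tKO difference of 0.49 passed narrowly (adjusted p = 0.0434) and did so in 12 of 28 alternatives. It was 0.74 (adjusted p = 0.000219) without clone 1, culture 1 at DM3, and 0.07 (adjusted p = 0.783) without clone 2. It also passed without any 1 library of control line 1 and without clone 2, culture 1 in GM. Without any 1 of the other 10 libraries it did not pass (adjusted p = 0.0511 to 0.171), and it was smallest, at 0.30, without clone 2, culture 1 at DM3. Without control line 1 or 2 the adjusted p was 0.0818 and 0.0930. A pseudogene with up to 59.4 FPKM, Rpl15-ps2, lies within Tcf12 on the opposite strand, and whether counting used strand is not given in the sources used here.

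Tcf4 (ENSMUSG00000053477, chr18:69344146-69687967, plus strand), which encodes the third E protein, passed the test in tKO cells. In control GM it had 10.6 and 8.78 FPKM in culture 1 and 7.80 and 10.4 in culture 2. In control DM3 it had 11.7 and 10.4 FPKM in culture 1 and 11.5 and 14.9 in culture 2. The groups overlapped, and the difference of 0.33 did not pass (limma adjusted p = 0.228), although it did with median-of-ratios size factors (0.52, adjusted p = 0.0400) and in 2 other alternatives. In tKO GM, clones 1 and 2 had 12.2 and 13 FPKM in culture 1 and 5.44 and 6.27 in culture 2. In tKO DM3 they had 9.96 and 13.9 FPKM in culture 1 and 18.3 and 16.4 in culture 2. The 2 tKO cultures moved differently, with overlap in culture 1 and none in culture 2. The tKO difference was 0.67 (SE 0.235, adjusted p = 0.0214), made of -0.09 within culture 1 and 1.42 within culture 2. It did not pass without any 1 of the 4 tKO libraries of culture 2 (0.47 to 0.60, adjusted p = 0.0545 to 0.0864), without control line 1 (0.67, adjusted p = 0.0510) or without clone 2 (0.66, adjusted p = 0.102). The call was also lost with only the compared libraries (adjusted p = 0.0725).

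Snai2 (ENSMUSG00000022676, chr16:14705852-14709395, plus strand), the zinc finger repressor, differed little between stages in control cells. In control GM it had 12.4 and 9.39 FPKM in culture 1 and 11.1 and 10.5 in culture 2. In control DM3 it had 12.5 and 11.7 FPKM in culture 1 and 15.5 and 12.8 in culture 2. The groups overlapped (difference 0.25, limma adjusted p = 0.433). In tKO GM, clones 1 and 2 had 21.8 and 11.4 FPKM in culture 1 and 12.7 and 6.70 in culture 2. In tKO DM3 they had 31.2 and 15.9 FPKM in culture 1 and 28.0 and 14.8 in culture 2. Clone 1 had the higher level of the 2 clones at both stages and in both cultures, and each clone was higher at DM3 than at GM in each culture. The tKO rise was 0.76 (SE 0.271, adjusted p = 0.0221, 1.71-fold between the means). It passed in 20 of 28 alternatives. It did not pass without clone 1, culture 1 at DM3 (0.59, adjusted p = 0.0790), without clone 1, culture 2 at DM3 (0.64, adjusted p = 0.0689), without clone 2, culture 2 in GM (0.51, adjusted p = 0.0896) or without either control line (0.76 in both, adjusted p = 0.0508 and 0.0518). The call was also lost with line averages (adjusted p = 0.0923), with only the compared libraries (adjusted p = 0.0807) and with no filter (adjusted p = 0.0504).

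**Figure D2:**
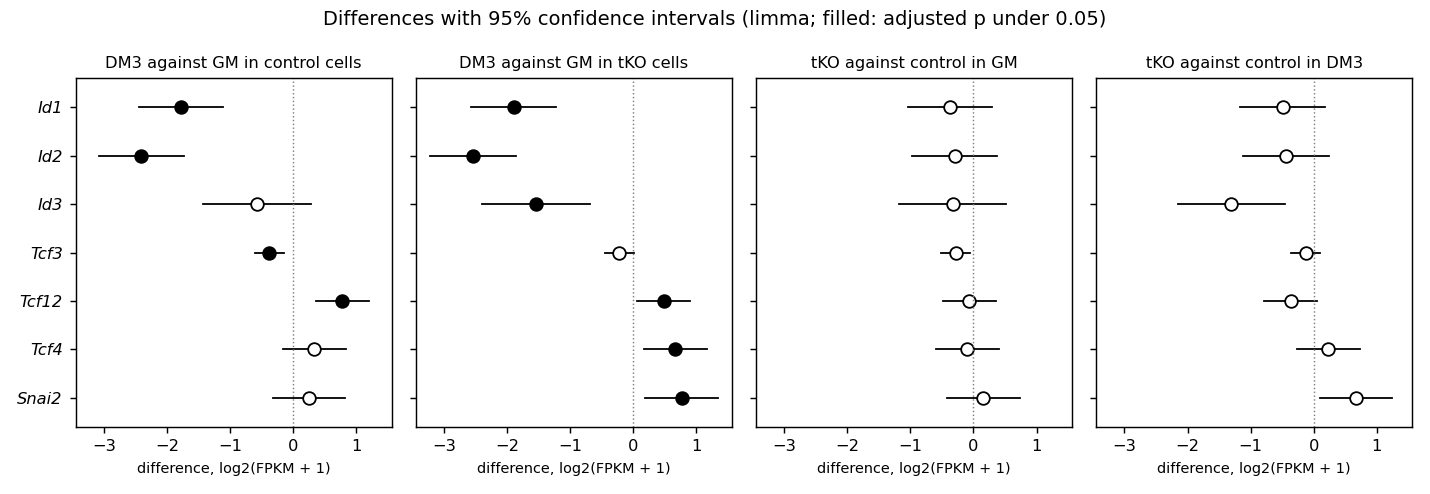
Difference in log2(FPKM + 1) for each of the 7 members in the 4 comparisons, as points with 95% confidence intervals from limma, filled where the adjusted p is under 0.05. Stage moves Id1 and Id2 in both genotypes, and no point is filled in either comparison of tKO with control.

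In growth medium no member passed the test between tKO and control cells. Of the 7 tested, 0 passed by limma, where 2.06% of all tested genes did. At an unadjusted p under 0.05, 1 member, Tcf3, would have passed. In GM, Tcf3 had 63.7 to 71.6 FPKM in controls and 45.0 to 62.0 in the clones. Every tKO library was below every control library, as for 14% of all tested genes (difference -0.28, 95% confidence interval -0.51 to -0.05, limma adjusted p = 0.192). Clone 1, culture 2 was lowest, and without it the difference was -0.18 (adjusted p = 0.586). The 3 Id genes were each lower in the mean in tKO GM, and none passed. For Id3 the SE was 0.402 in the fit over all 16 libraries, which includes the DM3 groups. With only the compared libraries it was 0.129 (limma adjusted p = 0.175). The difference was -0.37 for Id1 (95% confidence interval -1.04 to 0.30), -0.30 for Id2 (-0.98 to 0.38) and -0.33 for Id3 (-1.18 to 0.52), with adjusted p of 0.596, 0.681 and 0.722. Those intervals do not show that the levels were alike. They count the 2 cultures of a line as separate samples, while the comparison rests on 2 clones against 2 populations. They therefore set no limit on a rise that would hold for the genotype. Tcf4 (-0.10, adjusted p = 0.877), Tcf12 (-0.07, adjusted p = 0.899) and Snai2 (0.16, adjusted p = 0.814) had differences near 0 in the mean. For Tcf4 that mean joined opposite directions, since both clones were above both control lines in culture 1 (0.35) and below both in culture 2 (-0.55).

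At DM3, too, none of the 7 members passed, where 3.38% of all tested genes did, although Id3 came close. At an unadjusted p under 0.05, 2 members would have passed, Id3 lower and Snai2 higher. The 4 control DM3 libraries had 27.7 to 67.0 FPKM of Id3 and the 4 tKO libraries 5.36 to 40.3, so the groups overlapped. Within culture 1 the control lines had 28.7 and 27.7 FPKM and the clones 16.6 and 5.36. Within culture 2 the control lines had 53.0 and 67.0 FPKM and the clones 40.3 and 17.2. Both clones were below both control lines in each culture, by 1.46 in culture 1 and 1.14 in culture 2 on the log2 scale, values given without a test. Across cultures the difference was -1.30 (SE 0.402, 95% confidence interval -2.15 to -0.45, limma adjusted p = 0.0935), a level 2.22-fold lower in the mean. Its size was larger than that of 99.4% of all tested genes. None of the 7 members had groups free of overlap at DM3, where 8.52% of all tested genes did.

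Whether Id3 passed differed with the libraries that entered the fit and with the model. Without clone 1 it was -1.97 (adjusted p = 0.0224), and without clone 1, culture 2 at DM3 it was -1.73 (adjusted p = 0.0148). Without clone 2 it was -0.64 (adjusted p = 0.301), and clone 1 alone overlapped the control range. Without clone 2, culture 1 at DM3 it was -0.83 (adjusted p = 0.139). It was lower in tKO cells in all 28 alternatives, and 3 of them passed, 1 of which kept all 16 libraries and changed the model. Id1 and Id2 were lower in the mean at DM3 as well, and neither passed. The difference was -0.49 for Id1 (95% confidence interval -1.16 to 0.18, adjusted p = 0.463) and -0.44 for Id2 (-1.11 to 0.24, adjusted p = 0.527). For Id1 it was -0.04 within culture 1 and -0.94 within culture 2, and -0.04 for clone 1 against -0.94 for clone 2.

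The signs of differentiation also differed among the tKO DM3 libraries, and their part in the Id3 levels was not tested. The summed FPKM of the 12 listed myotube markers was 1991 and 1851 in clones 1 and 2 in culture 1, and 642 and 690 in culture 2, against 1415 to 2048 in control DM3. The summed FPKM of the 11 proliferation markers was 80.5 and 215 in clones 1 and 2 in culture 1, and 128 and 167 in culture 2, against 155 to 190 in control DM3. Clone 2, culture 1, which had the lowest Id3, thus had a myotube sum within the control range and the highest proliferation sum.

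Snai2 had the highest ratio of tKO to control means at DM3 among the 7, at 1.71. It is also the tested member with a 7-base seed site, and the part of that site in its level was not tested. Control DM3 libraries had 11.7 to 15.5 FPKM, clone 1 had 31.2 and 28.0, and clone 2 had 15.9 and 14.8. Clone 1 lay above every control library and clone 2 overlapped them. The difference over both clones was 0.67 (SE 0.271, 95% confidence interval 0.10 to 1.24, limma adjusted p = 0.217). Without clone 2 it was 1.12 (adjusted p = 0.00286) and without clone 1 it was 0.22 (adjusted p = 0.529), so the pooled difference rested on clone 1. In GM, clone 1 was again above every control library (difference 0.59) and clone 2 was not (-0.27). Tcf12 showed the other clone-bound difference. At DM3 clone 1 had 15.3 and 25.5 FPKM, below the 31.0 to 38.6 of controls, and clone 2 had 39.8 and 32.5, within or just above them. The difference was -0.36 over both clones (adjusted p = 0.376), -0.78 without clone 2 (adjusted p = 0.0152) and 0.05 without clone 1. Tcf3 (-0.12, adjusted p = 0.611) and Tcf4 (0.23, adjusted p = 0.665) did not pass.

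**Figure D3:**
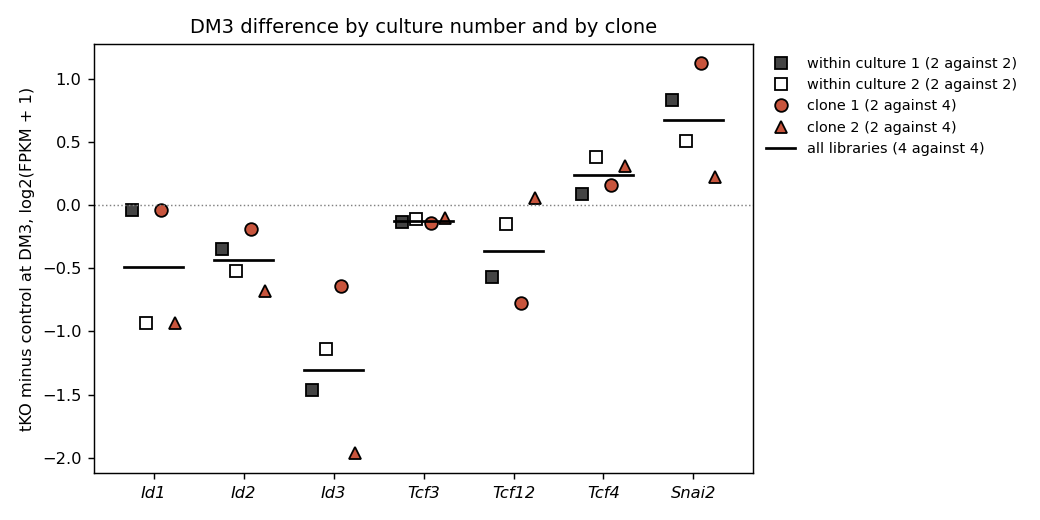
Difference between tKO and control cells at DM3 in log2(FPKM + 1) for each member, over all libraries (line), within each culture number (squares) and for each clone against both control lines (circle and triangle). Id3 is below 0 in both cultures and both clones, while Snai2 and Tcf12 differ from control mainly in clone 1.

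The genotype by stage interaction, which asks whether tKO cells changed differently on differentiation, passed for 0 of 7 members and for 0.254% of all tested genes. No member passed it at an unadjusted p under 0.05, and the differences ran from -0.97 for Id3 to 0.51 for Snai2 (adjusted p = 0.554 and 0.651 by limma).

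The 3 members under the filter were close to undetected. Id4 (ENSMUSG00000021379, chr13:48261427-48264036) had at most 2 fragments in any library, and Twist1 (ENSMUSG00000035799, chr12:33957671-33959817) also at most 2. Both are below the floor of 3 fragments, so no fold is given. Msc (ENSMUSG00000025930, chr1:14753346-14755992) was detected in few libraries. It had 5, 5, 1 and 3 fragments in control GM and 0 in all 4 control DM3 libraries. In tKO GM, clone 1 had 30 fragments in culture 1 and 8 in culture 2, and clone 2 had 1 and 0. In tKO DM3 clone 1, culture 2 had 13 fragments and the other 3 libraries had 0. The highest Msc level was therefore 0.581 FPKM in clone 1, culture 1 in GM. A two-sided exact permutation test of 4 against 4 libraries, over 70 splits with a smallest p of 0.0286, gave p = 0.0286 for Msc in control DM3 against GM and 0.114 after adjustment over 4 tests. The same exact test gave p = 0.457 between genotypes in GM, 1 between genotypes at DM3 and 0.543 between stages in tKO cells. Gm9947, an antisense gene with at most 0.0907 FPKM, covers all 2647 bases of Msc, so fragments of the pair may be shared.

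Set against each other, summed Id messages exceeded summed E protein messages in 7 of 8 GM libraries, the exception being clone 1, culture 1, and in 1 of 8 DM3 libraries, control line 2, culture 2. The summed FPKM of Id1 to Id4 divided by that of Tcf3, Tcf4 and Tcf12 was 1.20, 1.59, 1.48 and 1.51 in control GM and 0.983, 1.47, 1.52 and 1.43 in tKO GM. In control DM3 the ratio was 0.385 and 0.388 in culture 1 and 0.857 and 1.02 in culture 2. In tKO DM3 it was 0.456 and 0.115 in culture 1 and 0.658 and 0.315 in culture 2. It was lower at DM3 than at GM in every line and culture, and the lowest was clone 2, culture 1. The E protein sum itself was 97.3 ± 3.29 FPKM (SD, n = 4) before and 99.1 ± 7.15 after differentiation in controls, and 84.4 ± 11.7 and 90.8 ± 12.3 in tKO cells. Its makeup shifted from Tcf3, 69.96% of the sum in control GM and 52.7% in control DM3, toward Tcf12, which went from 20.4% to 35.0%. In tKO cells Tcf3 made up 66.8% in GM and 53.5% at DM3, and Tcf12 22.6% and 30.4%. Clone 1, culture 1 did not shift, with Tcf3 at 66.5% and 66.7% and Tcf12 at 20.4% and 20.2% in GM and DM3. In control cells the Id sum went from 140.4 ± 13.7 to 64.2 ± 28.7 FPKM, and in tKO cells it went from 113 ± 19.5 to 33.5 ± 18.8 FPKM. Id3 made up 44.1% ± 3.45 of it in control GM and 69.0% ± 1.32 in control DM3. In tKO cells its share was 44.4% ± 8.93 in GM and 55.1% ± 11.5 at DM3. These ratios describe messages in each library and carry no test.

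**Figure D4:**
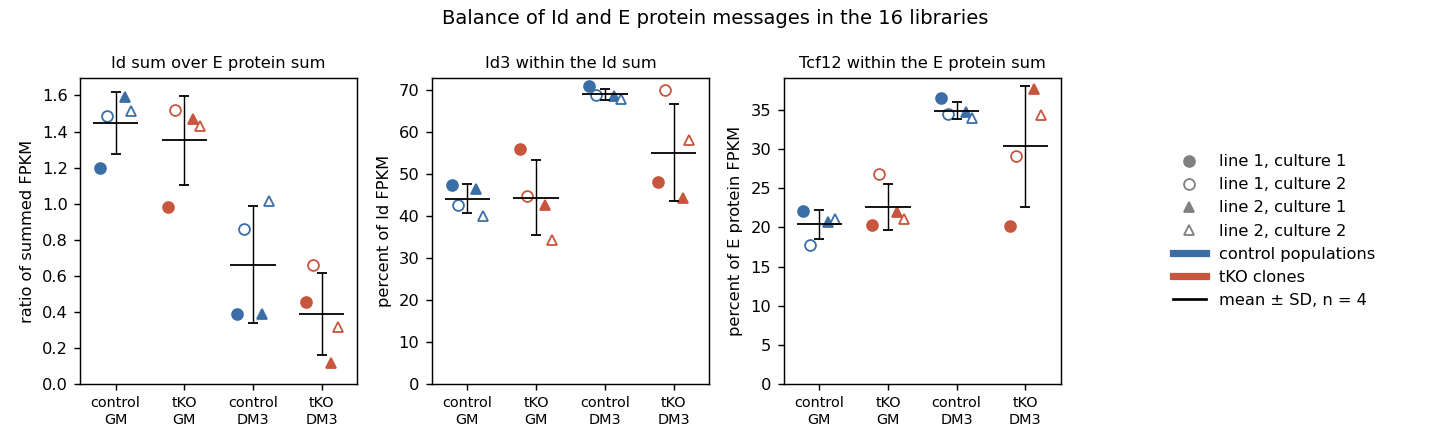
Summed FPKM of Id1 to Id4 over that of Tcf3, Tcf4 and Tcf12, Id3 as a percent of the Id sum and Tcf12 as a percent of the E protein sum in the 16 libraries, with mean ± SD (n = 4). The ratio lies between 0.983 and 1.59 in GM and between 0.115 and 1.02 at DM3, and Id3 takes 67.9% to 70.9% of the Id sum in the control DM3 libraries.

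The myogenic factors that E proteins partner with set the frame for these values. Myod1 is a defining gene of myoblasts, as the cells are labelled, yet it had 0 fragments in GM in all 4 control libraries and 0 to 3 in those of the clones. At DM3 it had 1.90 ± 0.996 FPKM (SD, n = 4) in control cells and 2.34 ± 0.879 in tKO cells. Myf5, the other early factor, was present throughout, at 17.0 ± 3.07 and 12.5 ± 1.01 FPKM in GM (controls, then clones) and 18.9 ± 5.82 and 17.0 ± 8.99 at DM3. Myog, the differentiation factor, had 0 to 5 fragments in any GM library and 5.96 ± 3.19 and 13 ± 8.18 FPKM in control and tKO DM3. Myf6 stayed under the filter with at most 10 fragments. Myod1 and Myog rose with stage in both genotypes (limma adjusted p between 1.40e-06 and 2.40e-05), and Myf5 passed in no comparison. None of the 3 tested factors differed between the genotypes. At DM3 the Myog difference was 0.90 (SE 0.393, adjusted p = 0.253).

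Genes that act on the Id genes or proteins were taken from lists. Of 31 listed BMP and Smad genes, 21 were tested. In control cells 4 rose and 7 fell, and in tKO cells 4 rose and 6 fell, smaller shares than the 61.5% and 60.9% of all tested genes that changed. Grem1, a secreted BMP antagonist, went from 170.1 ± 24.1 to 14.5 ± 2.60 FPKM in controls (difference -3.46, limma adjusted p = 3.30e-08) and from 102 ± 45.3 to 10.9 ± 2.80 in the clones (-3.02, adjusted p = 1.22e-07). The inhibitory Smad genes Smad6 and Smad7 fell in control cells, at -1.07 and -0.87, and Smad7 fell by 1.25 in tKO cells. Smad6 was not among the 4 largest changes that are named for tKO cells, and its value there is not given. The Smad7 call in control cells was lost without control line 1 or 2 (adjusted p = 0.0703 and 0.0733). Rgma, a BMP co-receptor, rose by 1.17 and 1.44. Chrd, which encodes the BMP antagonist chordin, was the single gene of this list that differed between the genotypes. At DM3 it had 0.611 ± 0.280 FPKM in controls and 1.58 ± 0.365 in the clones (difference 0.69, adjusted p = 0.0115), and it rose by 1.02 with stage in tKO cells. Its stage change in control cells was not among the 4 largest that are named there, and is not given. Its genotype difference did not pass without control line 1 (0.61, adjusted p = 0.311), control line 2 (0.76, adjusted p = 0.139) or clone 1 (0.57, adjusted p = 0.0742), nor with a pseudocount of 0.1 (1.32, adjusted p = 0.0627). It was lost too with line averages (adjusted p = 0.0631) and with only the compared libraries (adjusted p = 0.107). Of 4 other regulators, Usp1, a deubiquitinase that stabilises Id proteins, fell from 30.4 ± 3.44 to 7.15 ± 1.60 FPKM in controls and from 34.8 ± 5.02 to 7.74 ± 2.18 FPKM in the clones (differences -1.96 and -2.06). Fzr1, an activator of the ubiquitin ligase that degrades Id proteins, fell too, at -0.79 and -0.63. Zbtb18, a repressor of Id genes, rose by 0.59 in control cells, and did not pass without control line 1 or 2 (adjusted p = 0.0905 and 0.139). None of these 4 differed between the genotypes. The median difference between stages in control cells was -0.37 for these 4 and -0.01 for the BMP and Smad list, against -0.15 for all tested genes.

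Among 13 listed cofactors and partners of E proteins, 8 were tested, and none differed between the genotypes. Of all tested genes 2.06% did in GM and 3.38% at DM3. With stage, 1 rose and 2 fell in control cells, and 1 rose and 3 fell in tKO cells. Those are smaller shares than the 61.5% and 60.9% of all tested genes that changed. The acetyltransferase genes Ep300 and Crebbp fell, at -1.05 and -1.04 in control cells and -0.81 and -0.80 in tKO cells. The LIM-only genes Lmo4 (0.53, control cells) and Lmo2 (1.03, tKO cells) rose, and Lmo4 did not pass without control line 1 or 2 (adjusted p = 0.108 and 0.0828). Carm1, a methyltransferase coactivator, fell by 0.38 in tKO cells, but with median-of-ratios size factors the difference was -0.22 (limma adjusted p = 0.190), and without clone 1 it was -0.29 (adjusted p = 0.137). It was also lost without clone 2, culture 2 in GM (-0.32, adjusted p = 0.0517) and with only the compared libraries (adjusted p = 0.0553).

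Other repressors of MyoD included 2 genes that were lower in tKO cells at both stages. Of 23 listed, 17 were tested, and 0 were higher and 2 lower in tKO cells in GM, with the same counts at DM3. Of all tested genes 2.06% differed in GM and 3.38% at DM3. Hey1, a Notch target, had 2.32 ± 0.568 FPKM in GM in controls and 0.805 ± 0.200 in the clones (difference -0.87, limma adjusted p = 0.00598). At DM3 it had 3.18 ± 0.646 and 1.63 ± 0.316 FPKM (-0.66, adjusted p = 0.0232). Sim2, a bHLH repressor, had 4.10 ± 1.37 and 1.68 ± 0.482 FPKM in GM (-0.91, adjusted p = 0.0166) and 4.40 ± 0.652 and 1.52 ± 0.364 at DM3 (-1.10, adjusted p = 0.00233). The GM and DM3 comparisons use different libraries of the same lines. In GM the Hey1 call was lost without control line 1 (-0.77, adjusted p = 0.376). The Sim2 call in GM was lost without either control line or clone 1 (-0.73 to -0.98, adjusted p up to 0.297). It was lost as well without control line 1 or 2, culture 1, or clone 1, culture 2 in GM (-0.76 to -0.85, adjusted p = 0.0605 to 0.0698), with line averages as the units (adjusted p = 0.0575) and with only the compared libraries (adjusted p = 0.0568). At DM3 it was lost without control line 2 (-1.09, adjusted p = 0.0908). Hey1 at DM3 passed in 19 of 28 alternatives. It did not without either control line or clone 1, nor without culture 1 of either control line or culture 2 of either clone at DM3 (-0.59 to -0.71, adjusted p = 0.0627 to 0.465). Line averages (adjusted p = 0.0724) and only the compared libraries (adjusted p = 0.101) did not give a Hey1 call at DM3 either. With stage, 5 of the 17 rose and 6 fell in control cells, and 6 rose and 6 fell in tKO cells, shares near the 61.5% and 60.9% of all tested genes. Among the falls in control cells were the chromatin repressor genes Hdac1 and Suv39h1, each at -1.67, and Ezh2 at -1.42. In tKO cells Suv39h1 was at -1.62 and Ezh2 at -1.17, while Hdac1 was not among the 4 largest changes that are named there. Hes1, a Notch target, fell too, at -1.43 in control cells and -1.89 in tKO cells, and Bhlhe41 rose by 1.23 in tKO cells. Bhlhe41 was not among the 4 largest changes that are named for control cells, and its value there is not given. Of the 17 tested, 0 passed the genotype by stage interaction.

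The members' own patterns over the 16 libraries were compared as a description, with points that share lines, stages and libraries. Id1 and Id2 had the highest Pearson's r over all libraries, 0.95, and 0.72 after the group means were taken away. Id2 and Id3 had 0.78, and at 0.79 the highest of the members once group means were removed, and Id1 and Id3 0.78 and 0.65. These values pool all groups and need not hold within each. In tKO GM, clone 2, culture 2 had the most Id1 (52.0 FPKM) and the least Id3 (39.9 FPKM). Id1 and Tcf12 ran opposite to each other, at -0.76 and -0.67. Among all tested protein-coding genes, Prkg2 (0.98), Wisp2 (0.97) and Ctnnbip1 (0.97) were most like Id1, and Chst2 (0.98), Cxcl5 (0.98) and Mrm1 (0.97) most like Id2. Sdhaf2 (0.92), Cbfb (0.87) and Commd5 (0.86) were most like Id3, whose best match was weaker than those of Id1 and Id2. For Tcf3 they were Usp5 (0.94), Cdk2ap1 (0.93) and Anapc5 (0.92), for Tcf12 Ubr3 (0.96) and Bach1 (0.95), and for Tcf4 Ttll7 (0.91) and Itgb8 (0.90). For Snai2 they were Urod (0.92), Pgm2 (0.91) and Asph (0.90). With group means taken away, the closest were Mboat7 for Id3 (0.96), Wisp2 for Id1 (0.92), Ikbke for Id2 (0.90), Pcbp4 for Tcf3 (0.92), Hipk1 for Tcf12 (0.96), Lox for Tcf4 (0.94) and Ufl1 for Snai2 (0.94).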

How the data were processed

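The authors deposited 1 table of FPKM values with a column per library, a gene length and a position, without pooling. The submitters' processing notes name STAR, DESeq and mm10, with no role or version given in the sources used here, nor the annotation or the use of strand. Columns were matched to samples by the names in the labels, and groups were taken from the titles. FPKM times gene length gave whole fragments for 100% of values above 0 (tolerance 0.05 fragments), which gave depth and fragment numbers.

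The log2(FPKM + 1) values of genes with a mean of at least 0.5 FPKM (11832 of 35275) were fitted with limma 3.58.1 in R 4.3.3, as group means over all 16 libraries with trend and robust moderation, and adjusted by the Benjamini-Hochberg method. Tested on simulated data for 11832 genes in tKO against control at DM3, the fit recovered 84% of 2-fold and 99% of 4-fold changes, with 7 false calls. Those changes were planted only in genes with a mean log2(FPKM + 1) above 2, with noise drawn independently for each library. Spread shared within lines or cultures was left out, so the shares recovered may not hold for the real libraries. Members under the filter had exact permutation tests where at least 4 libraries were above the floor. Python 3.11.15 with numpy 2.4.6, scipy 1.17.1 and pandas 2.3.3 was used for the rest. Members and gene lists were chosen with earlier results of these data known. Named genes are all members, up to 4 genes per list and comparison by size of change among those past the threshold, the 4 myogenic factors and up to 3 genes most like each member. A table row whose symbol had been turned into a date, and an unnamed clone gene, were left out of the last.

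The 28 alternatives were pseudocount 0.1, no filter, median-of-ratios size factors, the culture number as a replicate block over all libraries or within each stage, only the compared libraries, line averages, voom on fragment numbers, and leaving out each library or line. Only the compared libraries could not give an interaction.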

Additional observations from a re-analysis of the deposited data

Results flagged for a closer look

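In 1 of 31 groups of 4 libraries tested, 1 library lay far from the other 3. It was Msc in tKO DM3, at 0.260 FPKM (13 fragments) in clone 1, culture 2, with 0 fragments in the other 3. About 1 in 20 groups of normally spread values is picked out in this way by chance alone. That rate does not hold for this Msc group, since 3 libraries at 0 give the highest possible score whatever the remaining value. The gene lies under the filter, and the library enters the exact permutation tests of Msc between genotypes at DM3 and between stages in tKO cells, neither of which passed (exact permutation p = 1 and 0.543, two-sided).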

How the results depend on the processing

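Of 973 alternative values for the 7 members in 5 comparisons, 909 kept their direction and their side of the threshold, 37 lost the threshold, 11 gained it and 16 changed sign. The number of genes past the threshold was 244 in tKO against control in GM, 400 at DM3, 7272 for stage in control cells and 30 for the interaction. With a replicate block for the culture number of each stage it was 635 in GM, 748 at DM3 and 125 for the interaction, and with the number over all libraries as a replicate block 336, 523 and 49. With line averages it was 97, 131 and 1, with only the compared libraries 113 at DM3, and with pseudocount 0.1 it was 13 for the interaction. Without control line 1 it was 33, 49, 4440 and 0, without control line 2 it was 38, 64, 4693 and 1, and without clone 2 it was 1315, 1136 and 101 for the 2 genotype comparisons and the interaction. Leaving out 1 library gave 80 to 749, 208 to 854 and 6 to 179. The number of members was 1 at DM3 with the block within each stage (Id3) and without clone 1 (Id3), and 2 without clone 2 (Snai2 and Tcf12). For stage it was 2 without control line 1 or 2 in control cells, and in tKO cells 3 with only the compared libraries, without control line 1 or without clone 2. Leaving out 1 library gave 0 to 1 at DM3 and 3 to 6 for stage in tKO cells. Signs changed without clone 1 for Id2 in GM (0.049), Snai2 in GM (-0.27), Tcf12 at DM3 (0.055) and Tcf12 in the interaction (0.12), and without clone 2 for Id1 and Id2 in the interaction (0.66 and 0.46). Leaving out 1 library gave -0.28 to 0.10 for Tcf4 and -0.11 to 0.42 for Snai2 in GM, and -0.37 to 0.14 for Id1 and -0.35 to 0.19 for Id2 in the interaction. The cause was not tested. Correlations between libraries were taken after group means were removed. Same-numbered cultures of different lines had a mean correlation of 0.25 in GM (lowest 0.10) and 0.19 at DM3 (lowest -0.22). Differently numbered ones had -0.25 and -0.19, a mirror image that removing group means brings about. The same line and number had 0.20 across stages (lowest 0.08), and the same line with the other number had 0.03. Across stages, cultures of different lines had -0.07 with the same number and -0.01 with the other number. What same-numbered cultures shared is not in the labels and was not tested. With the block within each stage, Id3 at DM3 passed (-1.30, limma adjusted p = 0.0115), and with either block Tcf3 for stage in tKO cells passed (-0.22, adjusted p = 0.0426 and 0.0386). No other member's call changed. Depth limits Id4 and Twist1, with at most 2 fragments in any library, and Msc, with 0 to 30.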
